A study of Homo sapiens with 8 samples.

Results

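TOX, its divergent transcript TOX-DT, and the related genes TOX2, TOX3 and TOX4 were followed in Reh, a long-established human leukemia line of B-cell precursor type. The members were all probe sets to which the platform annotation assigned one of these 5 gene symbols, 13 probe sets of 54613 that were not array controls. TOX had 2 probe sets, TOX-DT 1, TOX2 1, TOX3 4 and TOX4 5. The family was selected on measured values, since TOX and TOX-DT stood among the genes raised by a CBFA2T3 shRNA in these same arrays. The levels of these 2 genes in that comparison, and in every comparison that shares an array with it, are therefore given as a description without a test.

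The 4 groups of Reh cells had received an shRNA against CBFA2T3 together with IKKβ(EE), a form of IκB kinase β that is always active, the CBFA2T3 shRNA alone, IKKβ(EE) alone, or a control shRNA, which the sample titles call mock. Knockdown and kinase expression are labelled transient, and each group had 2 arrays named as biological replicates 1 and 2. Whether a control shRNA was also given with IKKβ(EE) alone is not in the labels. All results come from 1 cell line, whose disease label reads non-Hodgkin lymphoma. The design is described as 4 transfections in duplicate. Nothing in the labels says that the replicates were separate cultures, so p-values may measure technical spread. In bulk RNA, more cells expressing a gene and more RNA per cell cannot be told apart.

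The TOX proteins are nuclear factors with a single HMG box, a DNA-binding fold that bends DNA. TOX is needed for the development of CD4 T cells, natural killer cells and innate lymphoid cells, and its sustained expression downstream of calcineurin and NFAT is a hallmark of exhausted T cells. TOX2 is known from natural killer and follicular helper T cells, TOX3 from breast epithelium and neurons, and TOX4 is a broadly expressed subunit of a phosphatase complex built on PNUTS. A divergent transcript such as TOX-DT is a noncoding RNA that starts beside a gene's promoter and runs the other way. CBFA2T3 is a corepressor related to ETO, and IKKβ activates NF-κB by marking its inhibitors for destruction.

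CBFA2T3 stood at log2 8.23 and 7.83 with both constructs, 8.40 and 8.11 with the shRNA alone, 8.91 and 8.89 with IKKβ(EE) alone, and 9.22 and 9.29 with the control shRNA. One of the 3 IKBKB probe sets stood at 11.45 and 11.97 with both constructs and 10.85 and 10.39 with IKKβ(EE) alone, against 4.43 and 3.60 with the shRNA alone and 3.97 and 4.02 with the control shRNA. The other 2 IKBKB probe sets lay between 6.81 and 9.18 on all arrays, and their differences of 0.32 and 0.26 between IKKβ(EE) alone and control did not pass (limma adjusted p = 0.575 and 0.676). Array values correlated pairwise at 0.978 to 0.995. Of 9 B-cell precursor markers with a probe set, 8 had a mean of log2 5 or more in every group, and only VPREB1 lay below it. Of 10 T-cell markers, CD4 and CD5 reached that level and CD3D, CD3E, CD3G, CD2, CD8A, CD8B, CD28 and TRAT1 did not in any group.

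TOX was the member with the widest range. On probe set 204529_s_at the level was log2 5.89 and 5.68 with both constructs and 5.67 and 6.91 with the CBFA2T3 shRNA alone, against 3.02 and 2.74 with IKKβ(EE) alone and 2.80 and 2.79 with the control shRNA. The 4 arrays with the CBFA2T3 shRNA were the 4 highest, and the values of shRNA and non-shRNA arrays did not overlap. All 4 shRNA arrays lay above all 4 others in 7.23% of the 24481 tested probe sets. A level of log2 5 on at least 2 arrays was the minimum for testing a probe set, and values under it are treated as close to background. By group mean, TOX stood at the 69.7th percentile of all probe sets with the shRNA alone and the 65.5th with both constructs, against the 17.2th with IKKβ(EE) alone and the 13.7th with the control shRNA.

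The order of the TOX group means was 6.29 ± 0.87 (SD, n = 2) with the CBFA2T3 shRNA alone, 5.79 ± 0.15 with both constructs, 2.88 ± 0.20 with IKKβ(EE) alone and 2.79 ± 0.006 with the control shRNA. The first and second of these overlapped, and so did the last pair. The 2 arrays of the CBFA2T3 shRNA alone differed by 1.24, a wider gap than in 99.8% of the tested probe sets of that group. With both constructs the gap was -0.21 (replicate 2 minus replicate 1), near the group's median absolute gap of 0.20.

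**Figure D1:**
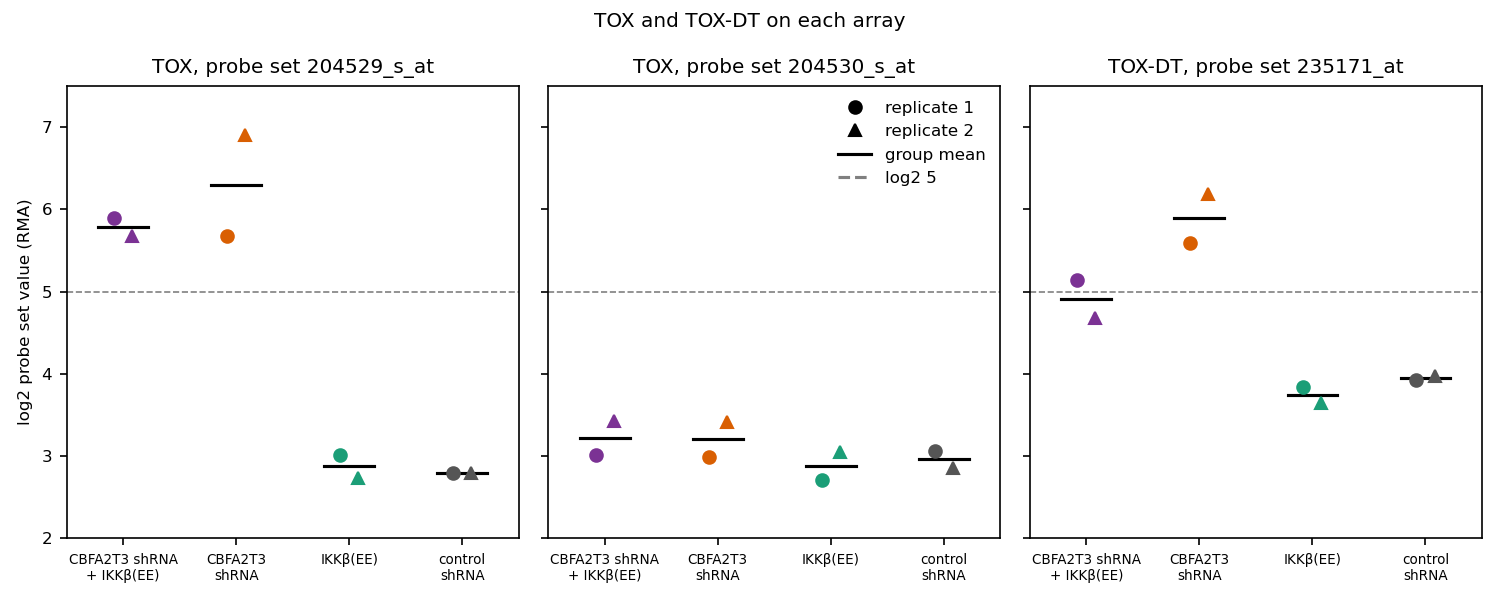
Log2 probe set values of TOX (2 probe sets) and TOX-DT on each of the 8 arrays, by group. Circles are replicate 1, triangles replicate 2, bars group means, and the dashed line is log2 5. On probe set 204529_s_at all 4 arrays with the CBFA2T3 shRNA lie above log2 5 and all 4 without it at or under 3.02.

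The comparison of both constructs with IKKβ(EE) alone set cells with the shRNA against cells without it, all with active IKKβ. Its 4 arrays are not those on which the family was picked out. The fit took its spread from all 8 arrays, so its test is not independent of that choice. The IKBKB probe set that was high with IKKβ(EE) stood 1.09 ± 0.30 higher with both constructs (limma adjusted p = 0.171). Within replicates it was 0.60 and 1.58 higher. The part of this IKBKB difference in the TOX values was not tested. TOX rose by 2.91 ± 0.35 on the log2 scale (SE of the fit, 95% confidence interval 2.10 to 3.72). The limma adjusted p was 0.0400, or 0.0141 with the replicate number as a block. TOX reached the minimum level only through arrays with the shRNA, and without that minimum the adjusted p was 0.0183. In this comparison 0.0858% of tested probe sets were called higher at an adjusted p under 0.05, and 21.5% had higher, non-overlapping values. The difference was 2.88 within replicate 1 and 2.94 within replicate 2. In linear terms this is 7.51-fold, but the IKKβ(EE) level lay under log2 5, so the fold is uncertain; against log2 5 itself TOX was at least 1.73-fold higher with both constructs.

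The TOX call rested on few arrays. It was lost without control 1 (adjusted p = 0.129), control 2 (0.128), IKKβ(EE) replicate 1 (0.128), IKKβ(EE) replicate 2 (0.336) or replicate 2 of both constructs (0.219). The difference itself stayed between 2.77 and 3.05 whichever of the 8 arrays was left out. Fitted on the 4 arrays of these 2 groups alone, it had a standard error of 0.17 and an adjusted p of 0.0359 by limma. With 2 arrays in each group, the smallest p of an exact permutation test is 0.333.

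The other differences of TOX are descriptions. TOX was 3.50 ± 0.35 higher with the CBFA2T3 shRNA alone than with the control shRNA, the contrast on which it was picked out (2.87 within replicate 1 and 4.12 within replicate 2), where 0.294% of tested probe sets were called higher. Against log2 5 in place of the control level, it was at least 2.45-fold higher. With both constructs it was 2.99 ± 0.35 above the control shRNA, in a comparison that called 4.68% of probe sets higher, or at least 1.73-fold higher against log2 5. IKKβ(EE) alone differed from the control shRNA by 0.08 ± 0.35. Both constructs differed from the shRNA alone by -0.50 ± 0.35, with 0.22 within replicate 1 and -1.23 within replicate 2, so the replicates pointed in opposite directions. The shRNA difference in IKKβ(EE) cells minus that in cells without IKKβ(EE) was -0.59 ± 0.49.

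The second TOX probe set did not follow the first. On 204530_s_at the level was log2 3.01 and 3.43 with both constructs, 2.99 and 3.41 with the shRNA alone, 2.71 and 3.05 with IKKβ(EE) alone, and 3.07 and 2.86 with the control shRNA. All 8 values lay under log2 5 and the groups overlapped, so this probe set was not among those tested. In a fit without the minimum level, its difference between both constructs and IKKβ(EE) alone was 0.34 ± 0.20 (95% confidence interval -0.12 to 0.80). That interval does not reach 2.10, the lower end of the interval of the first probe set in the fit with the minimum. Between the shRNA alone and the control shRNA the difference was 0.24 ± 0.20, against 3.50 on the first. At these levels a change could be compressed by background, so its absence on the second probe set is not shown. The transcript positions of the 2 probe sets were not analysed here, and which TOX transcripts each one reads was not tested.

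TOX-DT, the noncoding neighbour of TOX on chromosome 8, was measured by probe set 235171_at. Its level was log2 5.14 and 4.67 with both constructs and 5.60 and 6.18 with the CBFA2T3 shRNA alone, against 3.84 and 3.65 with IKKβ(EE) alone and 3.92 and 3.97 with the control shRNA. The 4 shRNA arrays were the 4 highest, a pattern shared with TOX and 7.23% of tested probe sets, and within each shRNA group the array with more TOX had more TOX-DT. The order of group means was 5.89 ± 0.42 (SD, n = 2) with the shRNA alone, 4.91 ± 0.33 with both constructs, 3.95 ± 0.04 with the control shRNA and 3.74 ± 0.14 with IKKβ(EE) alone, and no neighbours in that order overlapped. In all tested probe sets 26.8% were lower without overlap with both constructs than with the shRNA alone, and 23.3% with IKKβ(EE) alone than with the control.

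Between both constructs and IKKβ(EE) alone TOX-DT differed by 1.16 ± 0.23 (95% confidence interval 0.64 to 1.69). This did not pass the test (limma adjusted p = 0.104) and did with the replicate block (adjusted p = 0.0389), under which 2.18% of all tested probe sets were called higher. The probe set reached the minimum level only through shRNA arrays, and without that minimum the adjusted p was 0.104, and 0.0430 when blocked. In the 4 arrays compared alone the adjusted p was 0.275 unblocked. Within replicates the difference was 1.30 and 1.03. Without 1 array it ranged from 0.93 to 1.40, with adjusted p from 0.104 to 0.416.

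The remaining TOX-DT differences are descriptions. The difference between the shRNA alone and the control shRNA, on which the transcript was picked out, was 1.94 ± 0.23, and between both constructs and the control shRNA 0.96 ± 0.23. With both constructs TOX-DT was lower than with the shRNA alone in each replicate, with differences of -0.45 and -1.51 (fitted -0.98 ± 0.23), whereas TOX differed in sign between these replicates. IKKβ(EE) alone differed from the control shRNA by -0.20 ± 0.23, and the shRNA difference with IKKβ(EE) minus that without it was -0.78 ± 0.32. Only the control and IKKβ(EE) means, and that of both constructs at 4.91, lay under log2 5.

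The protein-coding neighbours of TOX give a measure that did not enter the choice of members. By gene order in RefSeq (GRCh38.p14), 4 on each side of TOX were taken, and this set was chosen after the TOX values were seen. Between both constructs and IKKβ(EE) alone 0.143% of all tested probe sets were called, and 2.18% higher and 2.39% lower with the replicate block. Of the 8 genes 5 were tested, and 0 were called there, with or without the block (lowest limma adjusted p = 0.381 without it). Their differences there ran from -0.27 for CHD7, a chromatin remodeller, to 0.51 for SDCBP, which encodes the scaffold syntenin. With the shRNA alone against the control shRNA 0 of 5 were called (0.69% of all tested probe sets were) and differences ran from -0.22 to 0.32. With both constructs against the control shRNA CHD7 fell by 0.53 (adjusted p = 0.04996), where 3.75% of probe sets were called lower, and SDCBP differed by 0.51 ± 0.26 (adjusted p = 0.254, and 0.0231 when blocked). CA8, the next protein-coding gene beyond TOX-DT, and the liver enzyme gene CYP7A1 had group means of log2 3.05 to 3.24 and 2.43 to 2.63.

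TOX2 and TOX3 stayed close to background in every group. TOX2 had log2 2.59 and 2.46 with both constructs, 2.60 and 2.64 with the shRNA alone, 2.38 and 2.75 with IKKβ(EE) alone, and 2.82 and 2.49 with the control shRNA. The groups overlapped, apart from the narrow order of both constructs below the shRNA alone. The 3 TOX3 probe sets whose suffix marks probes that may bind other sequences (x_at) ranged from 2.12 to 2.61 over all arrays. The fourth, 230745_s_at, had 4.10 and 4.05 with both constructs, 4.03 and 4.13 with the shRNA alone, 4.12 and 3.91 with IKKβ(EE) alone, and 4.48 and 4.12 with the control shRNA.

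None of these 5 probe sets reached the minimum level for testing. In a fit without that minimum, their 30 differences over the 6 comparisons lay between -0.35 and 0.36, with 95% confidence intervals within -0.68 to 0.84 and no limma adjusted p under 0.264. One of the 30 had an unadjusted p under 0.05 (TOX3 216623_x_at, -0.35 with both constructs against the control shRNA). At these levels a change in TOX2 or TOX3 could be compressed by background, so its absence is not shown.

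**Figure D2:**
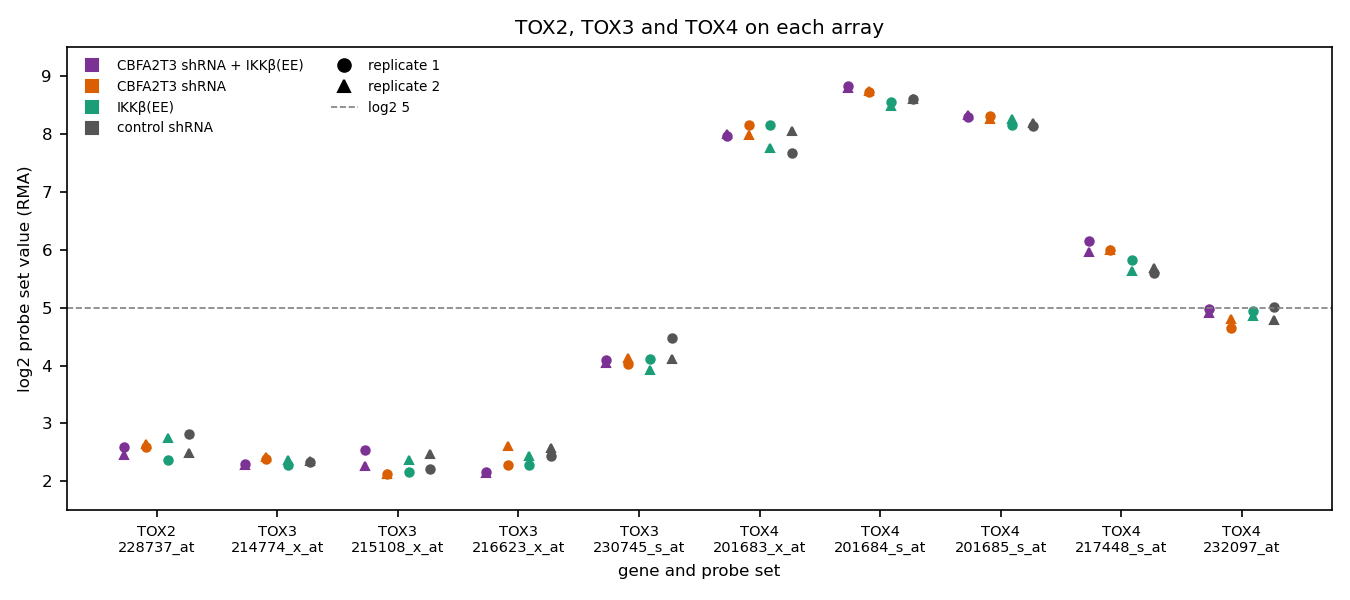
Log2 probe set values of TOX2, TOX3 and TOX4 on each of the 8 arrays, coloured by group, with circles for replicate 1 and triangles for replicate 2. TOX2 and TOX3 lie under log2 5 (dashed line) on every array, and 4 of the 5 TOX4 probe sets lie above it.

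TOX4 was the family member that Reh cells expressed in all groups. Its brightest probe set, 201684_s_at, had log2 8.83 and 8.79 with both constructs, 8.72 and 8.74 with the shRNA alone, 8.54 and 8.48 with IKKβ(EE) alone, and 8.61 and 8.60 with the control shRNA. The groups did not overlap, in the order both constructs, shRNA alone, control shRNA, IKKβ(EE) alone, within a range of 0.35. In comparison 19.9% of tested probe sets were higher without overlap with both constructs than with the shRNA alone. Its difference between both constructs and IKKβ(EE) alone was 0.30 ± 0.11 and did not pass (limma adjusted p = 0.255).

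Probe set 217448_s_at of TOX4 showed the widest differences. It stood at log2 6.16 and 5.96 with both constructs, 5.99 and 5.99 with the shRNA alone, 5.83 and 5.63 with IKKβ(EE) alone, and 5.59 and 5.69 with the control shRNA. The shRNA arrays were the 4 highest here and on 2 other TOX4 probe sets, 201684_s_at and 201685_s_at, beside the 7.23% of all tested probe sets. Both constructs exceeded the control shRNA by 0.42 ± 0.13 (95% confidence interval 0.12 to 0.72), with a limma adjusted p of 0.0872, or 0.0362 with the replicate block, under which 11.8% of all probe sets were called higher. The shRNA alone differed from the control shRNA by 0.35 ± 0.13 (adjusted p = 0.237), and both constructs from IKKβ(EE) alone by 0.33 ± 0.13 (adjusted p = 0.287).

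The other 3 TOX4 probe sets showed smaller differences. Both constructs differed from IKKβ(EE) alone by 0.02 ± 0.18 on 201683_x_at and 0.10 ± 0.11 on 201685_s_at. On 232097_at, which reached log2 5 on 1 array and was not tested, the difference was 0.04 ± 0.13. Over the 4 tested TOX4 probe sets and 6 comparisons, 0 of 24 tests passed in limma without the block and 4 had an unadjusted p under 0.05, beside 14.2% of all tests over the same comparisons. No difference exceeded 0.42 in size. The background in these comparisons was 0.69% called in either direction for the shRNA alone against control, 0.229% for IKKβ(EE) alone against control, 8.43% for both against control, 0.143% for both against IKKβ(EE), 0.862% for both against the shRNA alone, and 0.0123% for the interaction.

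**Figure D3:**
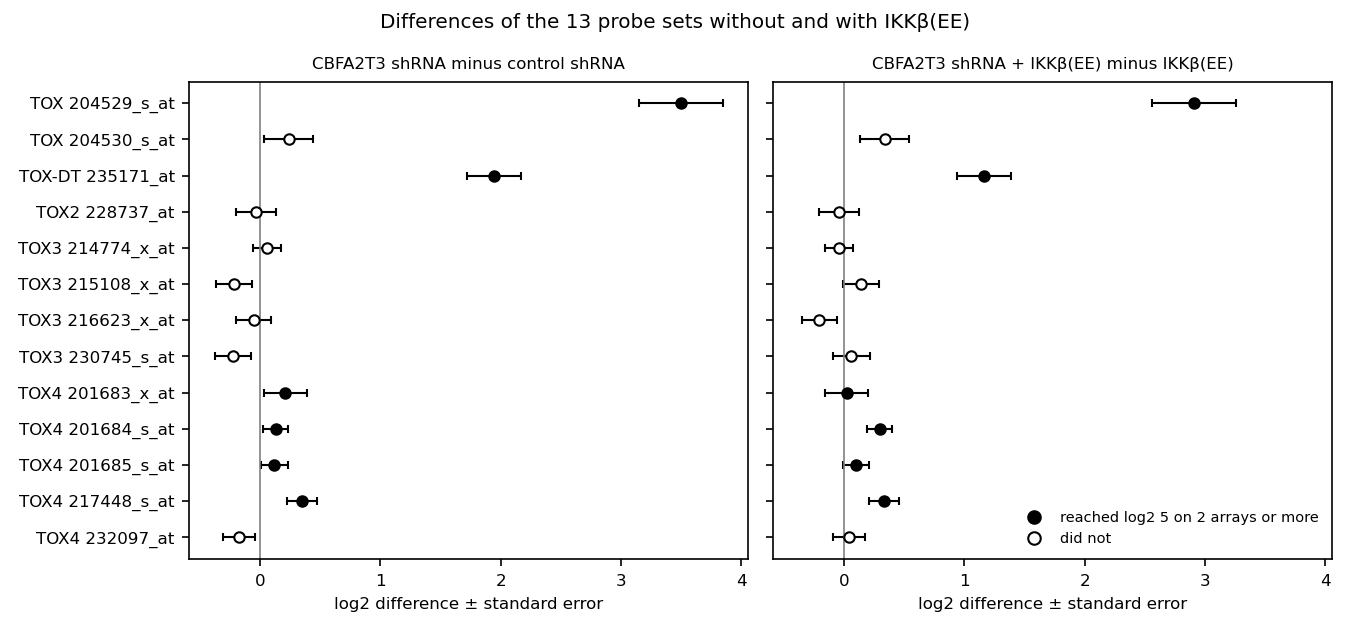
Log2 differences (points) and standard errors of the fit (bars) of the 13 probe sets, for the CBFA2T3 shRNA minus the control shRNA (left) and both constructs minus IKKβ(EE) alone (right). Filled points reached log2 5 on at least 2 arrays. TOX 204529_s_at stands at 3.50 and 2.91 and TOX-DT at 1.94 and 1.16, and the other 11 probe sets lie within 0.35 of 0 in both panels.

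Genes whose pattern over the 8 arrays was most like that of TOX 204529_s_at were ranked by the root mean square difference after each probe set's own mean was subtracted. Among 11448 genes the 5 closest were SUCNR1, the succinate receptor (0.705), the Fc receptor pseudogene FCGR1BP (0.707), LCK, the kinase that starts T-cell receptor signalling (0.735), CDC42EP3, an effector of the small GTPase CDC42 (0.767), and TOX-DT (0.866). The median over all genes was 1.64. TOX and TOX-DT were both picked out as raised by the shRNA on these arrays, so the rank of TOX-DT is no support. LCK had log2 6.52 and 6.96 with both constructs, 6.68 and 7.31 with the shRNA alone, 5.05 and 5.20 with IKKβ(EE) alone, and 5.04 and 4.85 with the control shRNA.

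In all 5 genes the 4 shRNA arrays were the 4 highest. CDC42EP3 departed from TOX in the cells without the shRNA, with 5.29 and 5.58 with IKKβ(EE) alone against 4.05 and 3.72 with the control shRNA. These genes were selected for this pattern, so their differences are not tested here. The FCGR1BP probe set is of the x_at kind and may also read other Fc receptor transcripts.

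**Figure D4:**
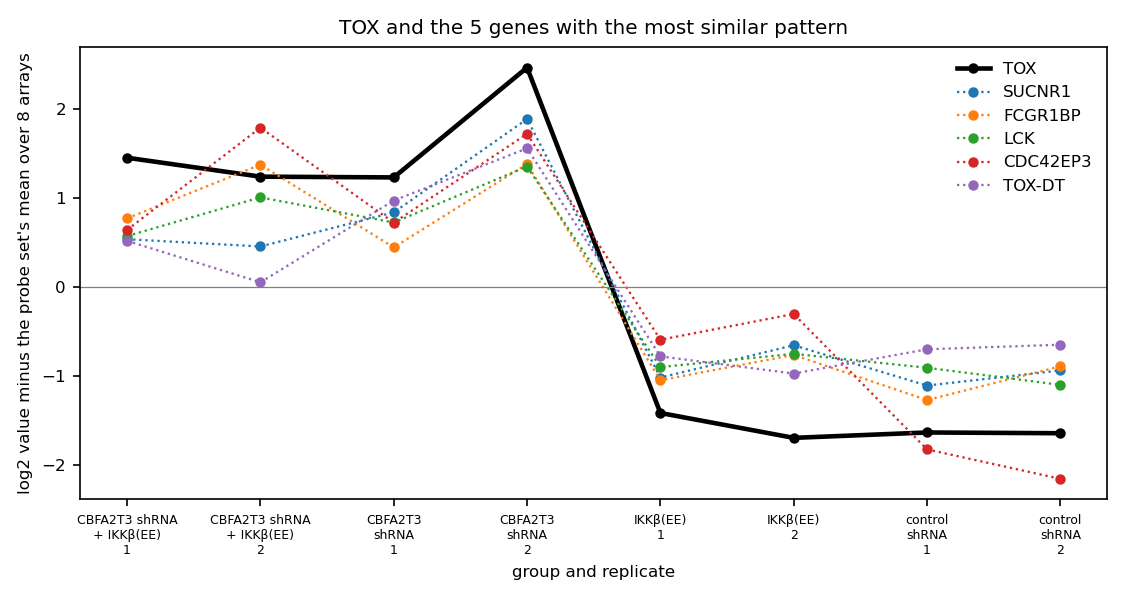
Log2 values minus each probe set's mean over 8 arrays, for TOX 204529_s_at (thick line) and the 5 genes closest to it, with the arrays on the horizontal axis by group and replicate. All 6 profiles are above 0 on the 4 shRNA arrays and below it on the other 4, and the lines only join the points of one gene.

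Genes linked to TOX factors by pathway, binding partner, DNA-binding fold or cell state were read from 7 lists, with 1 probe set per gene. Of 54 listed genes 49 had a probe set of their own symbol and 39 were tested. Between both constructs and IKKβ(EE) alone, the comparison in which TOX rose, 0 of the 39 were called (0.143% of all tested probe sets were) and the median difference was 0.003, against -0.003 over all tested probe sets. With the replicate block GATA3 was called higher and PPP3CA and RCAN1 lower, beside 2.18% and 2.39% of all tested probe sets. With both constructs against the control shRNA 2 of 39 were called higher and 1 lower, beside 4.68% and 3.75% of all tested probe sets.

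The calcineurin, NFAT and NR4A list had 11 of 11 genes tested. The probe sets read for PPP3CA, NR4A1 and NR4A2 are of the x_at kind and may also bind other sequences. PPP3CA, a catalytic subunit of calcineurin, had log2 8.97 and 9.09 with both constructs and 8.87 and 8.85 with the shRNA alone, against 10.01 and 10.11 with IKKβ(EE) alone and 9.98 and 10.27 with the control shRNA. All shRNA arrays lay below all others. The share of tested probe sets with this order was not counted, so it is a description only. The opposite order held in 7.23% of them. PPP3CA fell by 1.26 ± 0.13 with the shRNA alone (limma adjusted p = 0.0272, with 0.396% of tested probe sets called lower) and by 1.09 ± 0.13 with both constructs (adjusted p = 0.00736), both against the control shRNA. Against IKKβ(EE) alone the difference with both constructs was -1.03 ± 0.13 (adjusted p = 0.0538, and 0.0117 when blocked by replicate).

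No other gene of that list passed without the block. NR4A2, an orphan nuclear receptor and immediate early gene, had the widest positive value, 2.42 ± 0.95 with both constructs against the control shRNA (limma adjusted p = 0.156). Its arrays with both constructs, at 4.65 and 7.82, differed by more than that. With the replicate block NFATC1, PPP3CC, NR4A1, NR4A2 and NR4A3 were called higher in this comparison, where 11.8% of all probe sets were. The PPP3CA call with the shRNA alone was lost without control 1 (adjusted p = 0.170), control 2 (0.251), either array of that shRNA group (0.0592 and 0.258) or either IKKβ(EE) array (0.0535 and 0.0517). With both constructs the call was lost without control 2 (0.0700). The difference itself stayed between -1.41 and -1.12 with the shRNA alone and between -1.24 and -0.95 with both constructs, whichever array was left out.

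In the list of T-lineage and innate lymphoid factors 5 of 9 genes on the array were tested. GATA3, a master regulator of T-helper and innate lymphoid fate, had log2 7.62 and 8.99 with both constructs, 7.68 and 8.53 with the shRNA alone, 6.60 and 7.51 with IKKβ(EE) alone, and 5.70 and 6.02 with the control shRNA. It rose by 2.45 ± 0.49 with both constructs against control (limma adjusted p = 0.0303), and its difference between both constructs and IKKβ(EE) alone was 1.25 ± 0.49 (adjusted p = 0.297, or 0.0312 with the block). ID2, an inhibitor of E proteins needed by innate lymphoid cells, rose by 1.66 ± 0.32 with both constructs against control (adjusted p = 0.0276). ID2 had log2 10.20 and 11.04 with both constructs and 10.32 and 10.93 with IKKβ(EE) alone. It had 9.22 and 9.78 with the shRNA alone and 8.90 and 9.02 with the control shRNA. Its high arrays were those with IKKβ(EE), unlike TOX. The share of tested probe sets with that order was not counted, so it is a description only.

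These calls also rested on single arrays. The GATA3 call was lost without control 1 (adjusted p = 0.142), control 2 (0.142), replicate 2 of both constructs (0.125), or in the groups compared alone (0.0523), and ID2 without the same 3 arrays (0.128, 0.142 and 0.122). Over all arrays left out the difference ran from 1.76 to 3.13 for GATA3 and from 1.24 to 2.08 for ID2. For GATA3 and ID2 alike, the second array of every group was the higher one. EOMES, a T-box factor of natural killer and memory T cells, differed by 2.60 ± 0.65 with both constructs against control (limma adjusted p = 0.0503, and 0.0042 when blocked). With the block GATA3, ID2 and EOMES were also called higher with IKKβ(EE) alone against control (2.96% of probe sets were), GATA3 with the shRNA alone against control (3.98%), and ID2 with both constructs against the shRNA alone (3.64%). RUNX3, BCL11B, TBX21 and ZBTB16 did not reach the minimum level.

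Of 8 inhibitory receptors of exhausted T cells on the array, 6 lay under the minimum level. ENTPD1, which encodes the ectonucleotidase CD39, ranged from log2 6.59 to 7.08 over all arrays, and the receptor gene CTLA4 from 4.56 to 5.28. Only these were tested, CTLA4 and ENTPD1 with differences of -0.25 ± 0.18 and 0.007 between both constructs and IKKβ(EE) alone, and neither was called in any of the 6 comparisons. HAVCR2, LAG3, TIGIT, CD244, CD160 and BTLA did not reach the minimum level.

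The remaining lists held 0 called genes in all 6 comparisons without the block. For both constructs against IKKβ(EE) alone, the 7 tested HMG-box genes ranged from -0.49 for SOX4 to 0.08 for SSRP1, and the 5 genes of the PNUTS phosphatase complex that holds TOX4 from -0.29 for WDR82 to 0.26 for PPP1CA. The 3 partners of TOX3 ranged from -0.09 for CREB1 to 0.17 for CITED1, and the 6 genes of non-homologous end joining, a repair pathway whose Ku proteins TOX is known to bind, from -0.25 for PRKDC to 0.07 for XRCC4. With the block, HMGB3, LEF1 and WDR82 were called lower and LIG4 higher with both constructs against control, beside 12% of all tested probe sets called lower and 11.8% higher. WDR82 was also called lower with the shRNA alone against control, where 3.74% of probe sets were, and LIG4 higher with IKKβ(EE) alone.

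**Figure D5:**
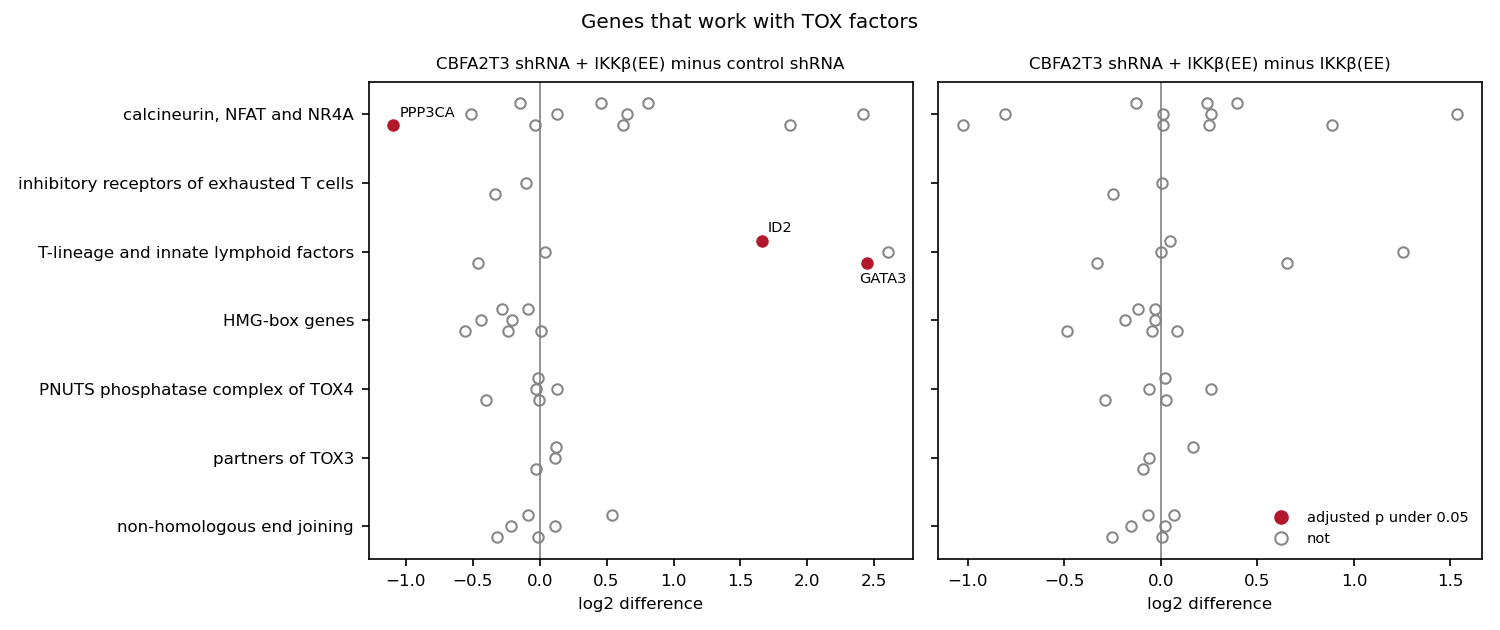
Log2 differences of the 39 tested genes of the 7 lists, 1 point per gene, for both constructs minus the control shRNA (left) and both constructs minus IKKβ(EE) alone (right). Points within a list are spread vertically for legibility. Red points passed an adjusted p of 0.05: PPP3CA, ID2 and GATA3 on the left and none on the right.

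Markers of other lymphocytes were set beside the TOX pattern. The summed linear value of the 10 T-cell markers ranged from 214 to 216 with both constructs and 216 to 218 with the shRNA alone. It ranged from 219 to 225 with IKKβ(EE) alone and 209 to 234 with the control shRNA. Of the 2 tested, 0 were called in any comparison, where 0.0123% to 8.43% of all tested probe sets were. The 6 natural killer cell markers summed to 139 to 147 with both constructs and 140 to 147 with the shRNA alone, against 114 to 119 with IKKβ(EE) alone and 120 to 134 with the control shRNA. In this list NKG7, a granule protein of cytotoxic lymphocytes, had log2 5.40 and 5.66 with both constructs and 5.43 and 5.69 with the shRNA alone, against 4.60 and 4.69 with IKKβ(EE) alone and 4.76 and 4.51 with the control shRNA.

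NKG7 was highest on the 4 shRNA arrays, as were 7.23% of tested probe sets. It passed the minimum level only through these arrays, so the size of its difference is uncertain and its calls are no support. It rose by 0.89 ± 0.16 with both constructs against control (limma adjusted p = 0.0209), and differed by 0.88 ± 0.16 between both constructs and IKKβ(EE) alone (adjusted p = 0.0865, or 0.0267 with the block). The first of these calls was lost without control 1 (0.0743), control 2 (0.138), replicate 2 of both constructs (0.115) or in the groups compared alone (0.0603), while the difference stayed between 0.76 and 1.02 whichever array was left out. The rest of the list did not follow NKG7: with both constructs against control NCAM1, the other tested marker, differed by -0.34 ± 0.18 (limma adjusted p = 0.264). In the same comparison KLRD1 differed by -0.18, KLRF1 by -0.056, GNLY by 0.0023 and NCR1 by 0.17, none of which reached the minimum level. The B-cell precursor markers summed to 23654 to 28782 with both constructs and 27388 to 29499 with the shRNA alone. The sums were 32218 to 32259 with IKKβ(EE) alone and 32540 to 32556 with the control shRNA. DNTT, the brightest of these markers, weighs most in the linear sums. With the shRNA alone against control DNTT differed by -0.47 ± 0.16. In that comparison 3 of the 8 tested markers differed upward, PAX5 by 0.02, VPREB3 by 0.18 and CD22 by 0.10. Of the 8 tested, 0 were called in any comparison without the block, where 0.0123% to 8.43% of all tested probe sets were. With the block CD79B (-0.37, limma adjusted p = 0.0481) and DNTT (-0.46, 0.0326) were called lower with both constructs against control, and MME (-0.58, 0.0446) with both against IKKβ(EE) alone. The part of natural killer or T cells in the TOX values was not tested.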

How the data were processed

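RNA of each sample was read on 1 Affymetrix array, 8 in all. Per the submitters' processing notes, the authors made the log2 values per probe set with RMA. RMA version and chip definition: not given in the sources used here. That the scale is log2 was read from the values, whose maximum of 14.6 exceeds what a natural log could give (11.1). RMA sets arrays to a common distribution, and values near background understate folds.

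Of 54675 probe sets, 62 controls and 30132 under a floor (log2 5, in 2 or more arrays) were left out, and 24481 were tested. The platform annotation gave 1 symbol for 41091 probe sets that were not controls, several for 1801 and none for 11721. Of the 13 member probe sets 6 passed, those of TOX and TOX-DT only through groups with the CBFA2T3 shRNA, so counts over the members that passed are no support.

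Limma 3.58.1 in R 4.3.3 fitted 1 mean per group and 1 shared spread to all 8 arrays (4 residual and 3.54 prior degrees of freedom). There were 6 comparisons, the interaction being the shRNA difference with IKKβ(EE) minus that without. Tests were two-sided with Benjamini-Hochberg adjustment over all tested probe sets. Precision is limited by array number, with a median standard error of 0.15 per difference. Differences between replicates 2 and 1 correlated in all 6 pairs of groups (0.34 to 0.58), so the replicate number was also fitted as a block.

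The text names all members, the 2 targeted genes, the 5 genes most like TOX, and called members of each list, or those with the largest and smallest difference where none was called. VPREB1, the neighbours and markers under the minimum level fall outside this rule. Members, lists and rules were chosen with earlier results of these data known. The fit was tested on simulated data. Alternatives were other floors, trend and robust moderation, cyclic loess, equal medians, array weights, the block, only the groups compared, and each array left out.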

Additional observations from a re-analysis of the deposited data

How the results depend on the processing

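Between both constructs and IKKβ(EE) alone 1 member probe set passed, TOX 204529_s_at. It reached the minimum level only through arrays with the shRNA, so the member counts given here are no support. The count was 0 with array weights (adjusted p = 0.0814) and with a floor at log2 6, which removes TOX and TOX-DT, 2 with the replicate block and 2 with the block in the 4 arrays compared (chosen after seeing the data), and 0 to 1 without 1 array. In the other 5 comparisons calls were counted over the 4 tested TOX4 probe sets only, since TOX and TOX-DT were selected on arrays these share. That TOX4 count was 0 for both constructs against control, and 1 with the replicate block, and 0 in the other 4 comparisons under every alternative run. The TOX4 217448_s_at interaction, -0.02, was 0.0085 with cyclic loess, and without 1 array ran from -0.11 to 0.080. Without 1 array, signs also changed for TOX4 201683_x_at (IKKβ(EE) against control -0.091 to 0.31, both against control -0.060 to 0.32, both against IKKβ(EE) -0.18 to 0.22, both against the shRNA -0.16 to 0.0025, interaction -0.39 to 0.010), 201685_s_at (IKKβ(EE) against control -0.0076 to 0.10, interaction -0.075 to 0.032) and 217448_s_at (IKKβ(EE) against control -0.011 to 0.18, both against the shRNA -0.027 to 0.17), and none was called in the fit to all arrays without the block.

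Counts over all probe sets moved more. For the shRNA alone against control, 169 became 449 with array weights, 359 in the groups compared alone and 1890 with the block, and 0 to 325 without 1 array. For IKKβ(EE) alone against control, 56 became 89 without a floor, 96 with trend and robust moderation, 124 in the groups compared alone and 831 with the block, and 5 to 200 without 1 array. For both against control, 2064 became 532 in the groups compared alone and 5810 with the block, and 81 to 3583 without 1 array. For both against IKKβ(EE), 35 became 58 without a floor, 6 in the groups compared alone, 695 there with the block and 1117 with the block, and 2 to 255 without 1 array. For both against the shRNA alone, 211 became 37 in the groups compared alone and 1244 with the block, and 38 to 754 without 1 array. The interaction count, 3, was 6 without a floor, 1 with trend and robust moderation and 0 to 1 without 1 array. The cause of these shifts was not tested.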
